A study of Mus musculus with 2 samples.

Results

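Nat10 and Thumpd1 are the enzyme that makes N4-acetylcytidine in RNA and the protein that brings it to tRNA. The 2 genes were taken by their symbols from a table of 12836 genes. Nat10 is the target of the RNA injected in the study, so its level also checks the labels. The question put to Thumpd1 is whether the mRNA of the adaptor differed along with that of its enzyme.

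The dsNat10 group was 1 library of mouse morulae that had received double-stranded RNA targeting Nat10, and the dsGFP group was 1 library of morulae that had received double-stranded RNA targeting GFP, a jellyfish gene that mice lack. All embryos were of the ICR stock, which is outbred, and both groups carry the injection itself. The design text names 50 morulae without saying whether each library had that many. The sources used here give no sequence, dose or time for the injected RNA. The libraries held 28303119 reads in dsNat10 and 29139232 reads in dsGFP. With 1 library per group no difference has a replicate check, and every ratio compares these libraries. In bulk samples, fewer cells of a type and less RNA per cell cannot be told apart. The morula label was checked on 8 genes of the early embryo, all detected in both libraries, with a summed level of 8090.1 CPM (reads per 1000000 reads) in dsNat10 and 8149 CPM in dsGFP. Most of both sums came from Dppa3, with 5147 CPM in dsNat10 and 4732 CPM in dsGFP. The median log2 ratio of the 8 genes was -0.46, with 5 below 0 and 3 above. Pou5f1, Cdh1, Gata3, Krt18, Dppa3 and Tfap2c were within the size limit explained below, while Tead4 (log2 ratio -1.60) and Krt8 (-1.07) were lower in dsNat10. Of 7 markers of cumulus cells, which surround the egg, 2 were matched, with 29.1 CPM in dsNat10 and 33.9 CPM in dsGFP, nearly all from Amhr2, while Inhba had 0 reads in dsNat10 and 2 in dsGFP. Of 8 markers of blood or fibroblasts, 5 were matched, with 101 CPM in dsNat10 and 76.6 CPM in dsGFP, while Ptprc, Hbb-bs and Col3a1 were not. Pecam1 (65.8 CPM in dsNat10, 35.9 CPM in dsGFP) and Cd68 (23.6 CPM in dsNat10, 30.5 CPM in dsGFP) made up most of both sums, and neither was called. Vim was higher in dsNat10 (log2 ratio 1.23), Hba-a1 was below the mean limit and Col1a1 had 0 reads in dsNat10 and 9 in dsGFP. The part of such cells in the values of Nat10 and Thumpd1 was not tested.

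Nat10 joins a helicase-like part and an acetyltransferase part in a single protein of the nucleolus. It acetylates cytidines of the small subunit's ribosomal RNA, where small nucleolar RNAs guide it, and a cytidine in the D arm of serine and leucine tRNAs, where Thumpd1 is needed. Thumpd1 has no known catalytic activity of its own and binds tRNA through its THUMP domain, a fold shared with several tRNA-modifying enzymes. N4-acetylcytidine has also been reported in mRNA, and the series title places it on the mRNA of Nop2.

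Long double-stranded RNA is cut in mouse oocytes and early embryos into short RNAs of about 21 bases that direct the cleavage of matching mRNA, so the sequences of both mRNAs are given first. In GENCODE M21 (GRCm38), the main Nat10 mRNA lies on the minus strand at chr2:103721256-103761270. It has 29 exons and 3879 bases, of which 237 are 5′ UTR, 3075 coding with the stop codon (1024 codons before the stop) and 567 3′ UTR. The main Thumpd1 mRNA lies on the minus strand at chr7:119715093-119720798, with 4 exons and 2689 bases, of which 57 are 5′ UTR, 1053 coding with the stop codon (350 codons before the stop) and 1579 3′ UTR. The first 60 coding bases of each are shown to identify the 2 mRNAs, with the start codon in capitals.
Nat10: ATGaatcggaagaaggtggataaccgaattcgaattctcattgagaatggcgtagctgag
Thumpd1: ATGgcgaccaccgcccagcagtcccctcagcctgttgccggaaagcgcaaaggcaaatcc
The start codon of Nat10 is at chr2:103757776-103757778 and that of Thumpd1 at chr7:119720739-119720741. The longest exact run that the 2 mRNAs share, searched on both strands, is 13 bases, and there are 2 such runs. They are shown because they bear on whether a short RNA cut from Nat10 sequence could match Thumpd1 over its whole length.
Coding run, position 2281 of the Nat10 mRNA and 688 of the Thumpd1 mRNA: gaagaagttatta
Opposite-strand run, position 3451 of the Nat10 mRNA and 2377 of the Thumpd1 mRNA, both in the 3′ UTR: tgaagacaaagtc
Positions count from 1 at the 5′ end of each mRNA. The 2 mRNAs therefore have no exact run of 21 bases in common on either strand. Partial pairing was not searched.

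The mRNA of Nat10 was far lower in dsNat10 than in dsGFP. Nat10 (Entrez gene 98956) had 37 reads in dsNat10, against 886 reads in dsGFP. Per length, it stood at 0.52 TPM in dsNat10 and 11.78 TPM in dsGFP, and at 0.35 FPKM in dsNat10 and 8.24 FPKM in dsGFP. The dsNat10 library was the low one on each of the 3 scales, in the direction that the labels give. All 3 scales rest on the same reads and are not separate checks. With TMM-scaled CPM the levels were 1.30 (95% counting interval 0.912 to 1.79) in dsNat10 and 30.7 (28.7 to 32.8) in dsGFP, so the intervals do not overlap. The log2 ratio, with 1 CPM added to each library, was -3.79. What remained of the dsGFP level was 4.22% in CPM, 4.41% in TPM and 4.25% in FPKM. The TPM and FPKM of Nat10 in dsNat10 are deposited with 2 decimals, which limits the last 2 shares. Reads of Nat10 were still present in dsNat10: 37 is over the floor of 3 counts. The origin of these reads was not tested.

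Thumpd1 mRNA was slightly lower in dsNat10 and remained abundant. Thumpd1 (Entrez gene 233802) had 8399 reads in dsNat10, against 10818 reads in dsGFP. Its level per length was 160 TPM in dsNat10 and 196 TPM in dsGFP, and 109.57 FPKM in dsNat10 against 137 FPKM in dsGFP. The log2 ratio was -0.35, short of the size of 1 that the rule for a call asks for. In CPM, 78.4% of the dsGFP level remained (95% counting interval 76.2% to 80.7%), while TPM gave 81.7% and FPKM 79.9%. The counting interval excludes equality, but it covers no variation between embryos or in amplification.

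**Figure D1:**
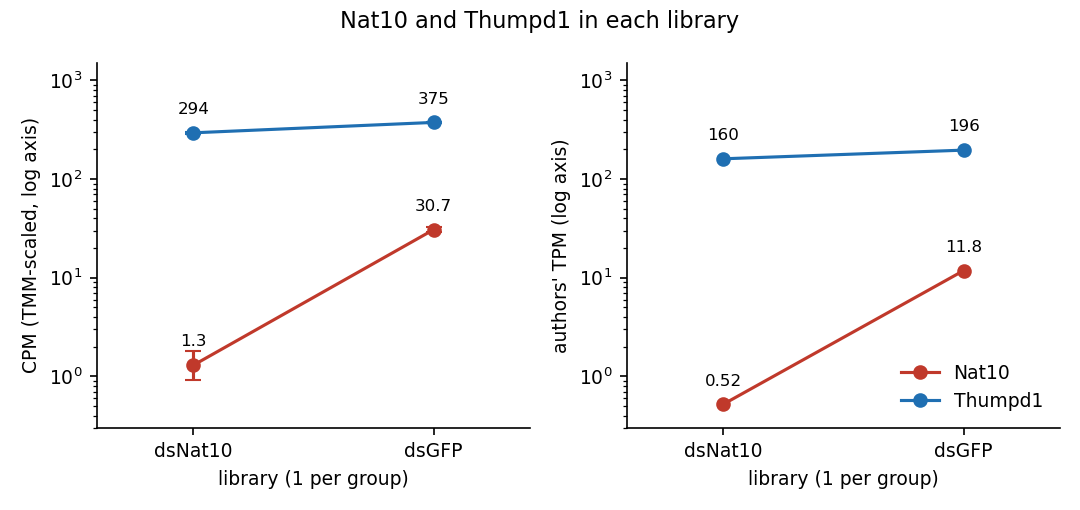
Levels of Nat10 (red) and Thumpd1 (blue) in the dsNat10 and dsGFP libraries, as TMM-scaled CPM with 95% counting intervals (left) and as the authors' TPM without intervals (right), both on log axes. Nat10 stands at 1.30 CPM in dsNat10 and 30.7 CPM in dsGFP, while Thumpd1 stays within 294 to 375 CPM.

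The enzyme and its adaptor thus had unequal ratios within the same pair of libraries. The ratio of Nat10 was 18.6-fold lower than that of Thumpd1 (95% counting interval 13.4 to 26.6), a difference of -4.22 on the log2 scale without a pseudocount. Library scaling cancels in this comparison. Per length, the adaptor's mRNA exceeded that of the enzyme by 308-fold in dsNat10 and by 16.7-fold in dsGFP, as a ratio of TPM. By TPM, Nat10 ranked 9061 of 12836 genes in dsNat10 and 5527 in dsGFP, counted from the highest. Thumpd1 ranked 1180 in dsNat10 and 1012 in dsGFP, so it was at or above 90.8% of genes in dsNat10 and 92.1% in dsGFP.

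Both ratios were read against those of all genes. Of the 8738 genes whose mean reached 5 CPM, 15.3% were lower and 15.2% higher in dsNat10 by the size rule, which asks for a log2 ratio of at least 1 in size and a counting interval that excludes equality. Nat10 was among those called lower and Thumpd1 was not called. By the log2 ratio with 1 CPM added, Nat10 was the 314th lowest of the 8738, and Thumpd1 the 2789th lowest. Because of the added CPM, some genes with 0 reads in dsNat10 rank after Nat10. Genes of moderate level, such as Nat10, spread widely. Among the 2185 genes with 20 to 50 CPM in dsGFP, the quartiles of the log2 ratio were -0.93 and 0.46, and 153 genes (7.0%), Nat10 included, kept as small a share of their dsGFP level. In the other direction, 36 of 2147 genes (1.68%) with 20 to 50 CPM in dsNat10 had as small a share in dsGFP. Losses of this size were thus more frequent in the dsNat10 library, and the part that the injected RNA has in the low Nat10 level was not tested against such losses. Over all 12836 genes, 20.8% stood at 0 TPM in dsNat10 and 3.67% in dsGFP. With no limit on the mean, 3252 genes were called lower and 1681 higher. The same limit applies to the genes named below with few or no reads in dsNat10. At the level of Thumpd1 the spread was narrower: the 785 genes with 200 to 500 CPM in dsGFP had a median log2 ratio of -0.14, and 232 of them (29.6%) were as low as Thumpd1 or lower. A mean limit of 20 CPM or more, or a mean limit of 5 in FPKM, removes Nat10 from the genes tested, since its mean is 16.0 CPM and its FPKM are low.

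**Figure D2:**
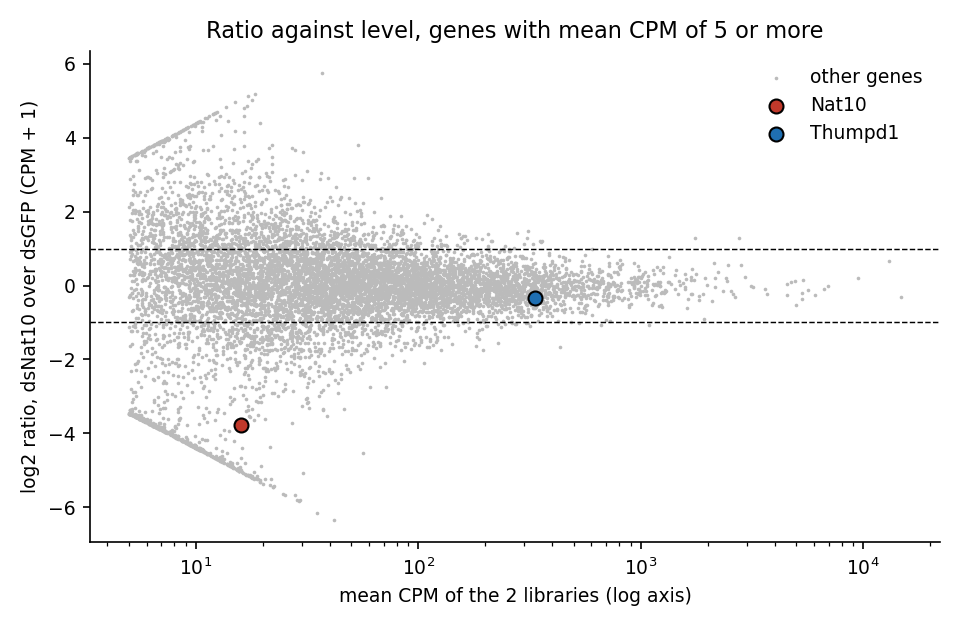
Log2 ratio of dsNat10 over dsGFP (CPM + 1) against the mean CPM of both libraries (log axis) for the 8738 genes whose mean reached 5 CPM, with dashed lines at the size limit of 1. Nat10, at -3.79 and 16.0 CPM, lies in the wide lower part of the cloud, and Thumpd1, at -0.35 and 334 CPM, lies inside its narrow part.

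The genes with the most similar pair of levels to each were found on log2(CPM + 1), over the 2 libraries, which is too few for more than a shared ratio at a shared level. Closest to Nat10 was Ptprs, a receptor tyrosine phosphatase, with 37 reads in dsNat10 and 882 in dsGFP. Mars2, the mitochondrial methionyl-tRNA synthetase, had 39 in dsNat10 and 840 in dsGFP. Uevld, Galnt2 and Ints1 followed, with 40 to 54 reads in dsNat10 and 732 to 1001 in dsGFP. Among the closest to Thumpd1 were Serf2, Cdk1, Srpr and Tpd52, with 8146 to 8797 reads in dsNat10 and 10355 to 11252 in dsGFP.

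The neighbours of both genes on the chromosome had mixed ratios. Caprin1, an RNA-binding protein of stress granules, lies next to the 5′ end of Nat10, and RefSeq annotates the 2 genes with an overlap of 10 bases. The main Nat10 mRNA of GENCODE M21 reaches only to chr2:103761270, short of the RefSeq start of Caprin1 at chr2:103762945. Caprin1 was not looked up in GENCODE M21. Caprin1 had 5846 reads in dsNat10 and 8446 in dsGFP, 1.43-fold lower (1.38 to 1.48). Cat, which encodes catalase, had 822 reads in dsNat10 and 541 in dsGFP. Pdhx had 3314 in dsNat10 and 3228 in dsGFP, and Apip 157 in dsNat10 and 308 in dsGFP. Fbxo3 was called lower with 1 read in dsNat10 and 398 in dsGFP, and Lmo2 was near 0 in both. So the steep ratio of Nat10 is not that of its nearest gene, while the third gene beyond it had a low ratio too.

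Beside Thumpd1, Eri2 had 943 reads in dsNat10 and 935 in dsGFP, with fractional counts. Acsm4, the nearest gene, had 0 reads in dsNat10 and 2 in dsGFP. Acsm3 had 0 in dsNat10 and 15 in dsGFP, and Ppp1ccb 100 in dsNat10 and 180 in dsGFP, both with fractional counts and below the mean limit. Knop1, a nucleolar protein, was called lower with 1498 reads in dsNat10 and 4832 in dsGFP, and Gprc5b was called higher with 285 in dsNat10 and 111 in dsGFP, and they lie 859094 and 719881 bases away.

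**Figure D3:**
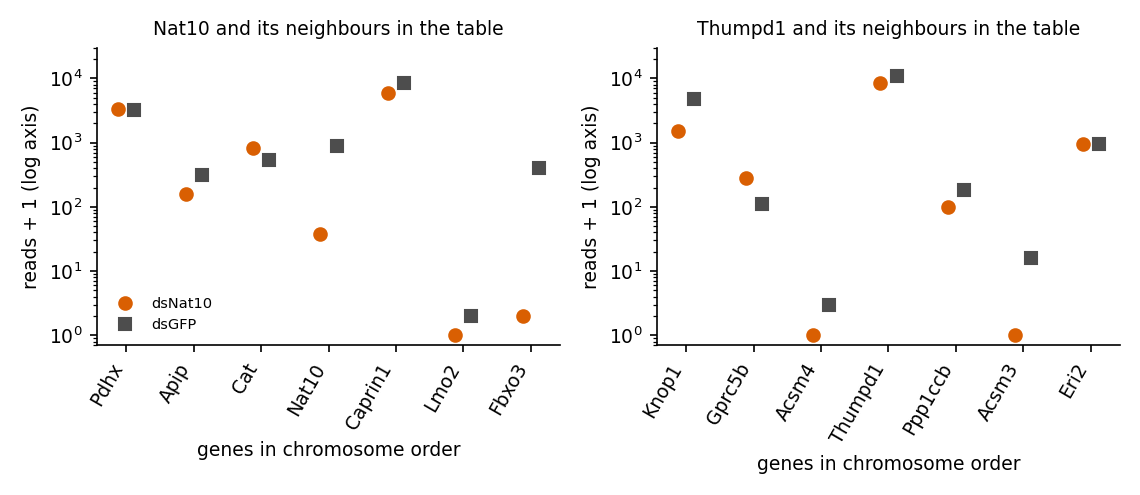
Reads plus 1 (log axis) in dsNat10 (orange circles) and dsGFP (grey squares) for Nat10, Thumpd1 and the 3 nearest genes of the table on either side, in chromosome order and not to scale. Nat10 has 37 reads in dsNat10 and 886 in dsGFP, while Caprin1 beside it has 5846 in dsNat10 and 8446 in dsGFP.

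The other THUMP proteins stayed within the size limit where they could be read. Trmt11, which methylates a guanosine of tRNA, had 950 reads in dsNat10 and 708 in dsGFP (log2 ratio 0.42). Thumpd3, a methyltransferase of the same family, had 1425 in dsNat10 and 1751 in dsGFP (-0.28), and Trmt112, the activating partner of Thumpd3 and Trmt11, 4504 in dsNat10 and 6429 in dsGFP (-0.50), both with fractional counts. Thumpd2 had 2 reads in dsNat10 and 68 in dsGFP, below the mean limit of 5 CPM. None of the 4 genes that passed the limit, Thumpd1 included, was called, while 15.3% of all 8738 genes were lower and 15.2% higher. Their median was -0.31, against 0.01 over all 8738 genes. Per length, Thumpd1 stood between the other members: Trmt112 had 274 TPM in dsNat10 and 374 in dsGFP, while Thumpd3 had 38.5 TPM in dsNat10 and 43.5 in dsGFP.

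Among 7 genes of base modification in the small subunit's ribosomal RNA, the partner Trmt112 included, only Nat10, the injection's target, was called. The shares over all 8738 genes were 15.3% lower and 15.2% higher. Dimt1, which dimethylates adenosines, had 1859 reads in dsNat10 and 2198 in dsGFP (log2 ratio -0.22). Bud23, a guanosine methyltransferase, had 5703 in dsNat10 and 5930 in dsGFP (-0.04), and Mettl5, an adenosine methyltransferase, 1563 in dsNat10 and 1889 in dsGFP (-0.25). Emg1 (-0.05) and Tsr3 (0.24), which act in turn on a modified uridine, were as close, and the sign of Emg1 differs in TPM. All 6 other genes have fractional counts, so their values are uncertain, and their median was -0.14. In yeast and human cells, Nat10 or its yeast counterpart joins the small subunit processome near Aatf, Ngdn and Nol10. Aatf had 3099 reads in dsNat10 and 3161 in dsGFP (-0.01, with a sign that depends on the scaling), Ngdn 5143 in dsNat10 and 6784 in dsGFP (-0.38), and Nol10, with fractional counts, 1196 in dsNat10 and 1099 in dsGFP (0.13).

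A list of genes of tRNA modification, most but not all acting in or next to the D arm, held 11 genes. Nat10 was called lower and Dus4l higher, beside 15.3% lower and 15.2% higher over all 8738 genes. Dus4l, a dihydrouridine synthase, had 308 reads in dsNat10 and 0 in dsGFP, at least 104-fold higher against the floor of 3 counts per library. At 10.8 CPM in dsNat10, it passed the mean limit, with 5.39 CPM, through that library only. How many genes of that level are at 0 in dsGFP was not counted. Its relatives Dus3l (5109 reads in dsNat10, 3324 in dsGFP, log2 ratio 0.63), Dus1l (3476 in dsNat10, 4017 in dsGFP, -0.19) and Dus2 (1660 in dsNat10, 1593 in dsGFP, 0.07) were not called, Dus1l and Dus2 with fractional counts. The guanosine methyltransferases Trmt1, Trmt10a and Trmt10b lay between -0.25 and 0.23. Without Nat10 and Thumpd1 the median of the 9 other genes was 0.07.

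The synthetases for serine and leucine tRNAs were compared, those of the cytosol and those of mitochondria. Sars, which charges serine tRNA in the cytosol, had 3169 reads in dsNat10 and 5501 in dsGFP (log2 ratio -0.78). Lars, its leucine counterpart, had 5505 in dsNat10 and 5223 in dsGFP (0.09). Sars2 and Lars2 charge the tRNAs of mitochondria. Sars2 had 1019 in dsNat10 and 1470 in dsGFP (-0.50). Lars2 had 0 in dsNat10 and 454 in dsGFP, at least 149.8-fold lower against the floor, the 1 call of 4. Lars2 stood at 15.7 CPM in dsGFP, and of the 1556 genes with 10 to 20 CPM in dsGFP, 219 (14.1%) were at 0 in dsNat10. Of all 8738 genes, 15.3% were called lower.

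Of 7 proteins reported to bind human NAT10 or to be acetylated by it, none was called, and the median was -0.01. All 8738 genes gave 15.3% lower and 15.2% higher. Trp53, the tumour suppressor, had 3802 reads in dsNat10 and 5742 in dsGFP (log2 ratio -0.58). Mdm2, its ubiquitin ligase, had 1343 in dsNat10 and 2212 in dsGFP (-0.69, fractional counts). Parp1, which responds to DNA breaks, had 7658 in dsNat10 and 11693 in dsGFP (-0.59). Ubtf (0.18, fractional counts), a factor of ribosomal gene transcription, Morc2a (0.30) and Sun1 (0.36), a protein of the nuclear envelope, had ratios above 0.

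Acetyltransferases, most but not all of the GNAT fold to which Nat10 belongs, differed in both directions. Of 28 listed, 21 were matched and 19 passed the mean limit, of which 3 were called lower, Nat10 included, and 2 higher. These counts stand beside 15.3% lower and 15.2% higher over all 8738 genes, so nothing particular to the list can be read from them. Elp3, the catalytic subunit of Elongator, which modifies wobble uridines of tRNA, had 1870 reads in dsNat10 and 4237 in dsGFP, 2.24-fold lower. Naa80, which acetylates actin, had 1 read in dsNat10 and 499 in dsGFP, with fractional counts. Naa11, a catalytic subunit for protein N termini, had 1073 in dsNat10 and 107 in dsGFP, 10.1-fold higher (8.30 to 12.5), while its paralogue Naa10 had 1076 in dsNat10 and 1456 in dsGFP. Atat1, the tubulin acetyltransferase, was 2.28-fold higher with fractional counts. The most abundant member, Sat1, a polyamine acetyltransferase, had 33645 in dsNat10 and 38064 in dsGFP (log2 ratio -0.16). The 18 other than Nat10 had a median of -0.14.

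Of 8 genes of the metabolism of acetyl-CoA, the donor of the acetyl group, 1 was called. The call was higher, beside 15.2% higher and 15.3% lower over all 8738 genes. Slc25a1, the carrier that exports mitochondrial citrate, had 1004 reads in dsNat10 and 318 in dsGFP, 3.19-fold higher (2.81 to 3.63). Acly, which splits that citrate into acetyl-CoA, had 8435 in dsNat10 and 9892 in dsGFP (log2 ratio -0.21). Acss2 (-0.81) and Acss1 (0.53), which make acetyl-CoA from acetate, had opposite signs. Acat2 (-0.20, fractional counts) and the pyruvate dehydrogenase genes Pdha1 (0.15, fractional counts), Pdhb (-0.30) and Dlat (-0.50) were within the limit.

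Of 7 genes of the machinery that turns double-stranded RNA into cleavage of mRNA, 5 passed the mean limit and were detected in both libraries. Ago2, the Argonaute that cuts, had 3787 reads in dsNat10 and 3000 in dsGFP (log2 ratio 0.35). Dicer1, which makes the short RNAs, had 306 in dsNat10 and 464 in dsGFP (-0.54), and its partner Tarbp2 3023 in dsNat10 and 3900 in dsGFP (-0.35). Ago1 was called lower with 87 in dsNat10 and 258 in dsGFP, and Ago4 was at 0.22. That call stands beside 15.3% lower and 15.2% higher over all 8738 genes, so nothing particular to the machinery can be read from it. Ago3 and Prkra had 0 reads in dsNat10 against 119 and 163 in dsGFP and did not pass the mean limit.

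Over all 9 lists, 59 genes other than Nat10 and Thumpd1 passed the mean limit, of which 4 (6.78%) were called lower and 4 (6.78%) higher, against 15.3% and 15.2% of all genes. Their median log2 ratio was -0.16, and 36 (61.0%) lay below 0, against 49.5% of all genes. Of the 59, 18 have fractional counts. Nothing particular to these lists can be read from the counts.

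**Figure D4:**
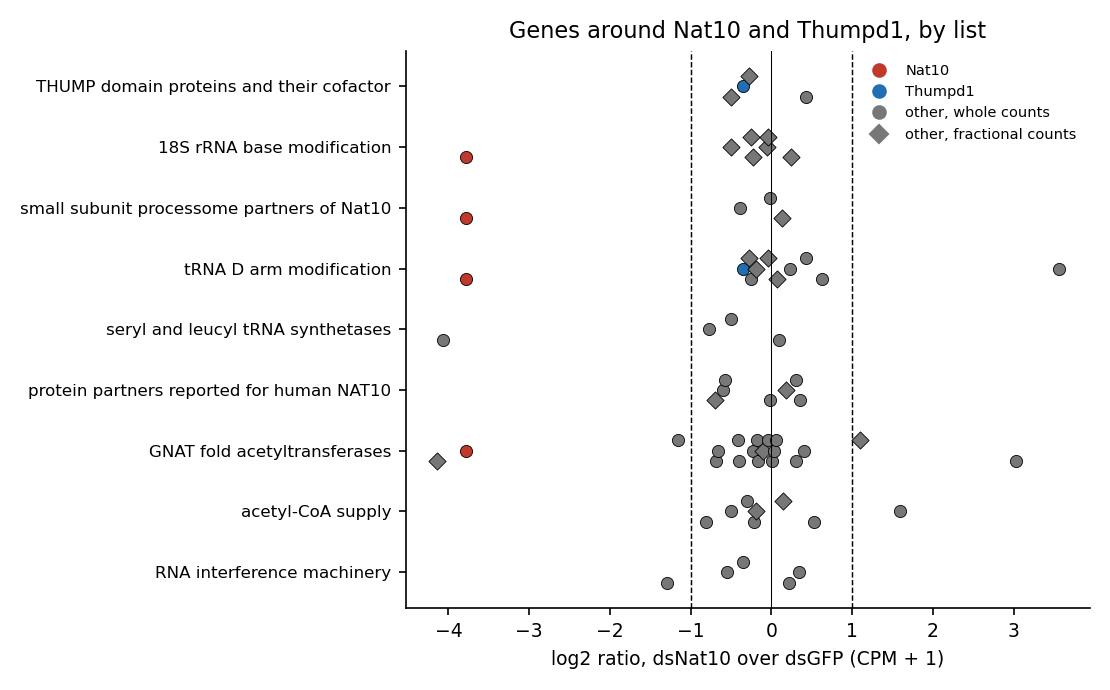
Log2 ratio of dsNat10 over dsGFP (CPM + 1) for each gene of the 9 lists whose mean reached 5 CPM, with dashed lines at the size limit of 1, circles for genes with whole counts in both libraries and diamonds for genes with fractional counts. Nat10 (red) stands at -3.79 in each list that holds it, Thumpd1 (blue) at -0.35, and most other genes lie between the dashed lines.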

How the data were processed

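RNA was measured in 2 libraries of mouse morulae, 1 per group. Per the labels' protocols, SMART-seq2 was used, a method for small inputs that amplifies cDNA of polyadenylated RNA over its full length, with paired-end DNBSEQ reads. Trim Galore, HISAT with GRCm38, and HTSeq are named in the submitters' processing notes for trimming, mapping and counting. The sources used here give neither versions nor the gene annotation. The authors deposited estimated counts per gene, and 23.2% of genes have a value farther than 0.001 from a whole number in at least 1 library. HTSeq gives whole numbers in its usual settings, and the sources used here do not name the program behind the fractions. The authors also deposited TPM, scaled to 1000000 per library after division by gene length, and FPKM, per kilobase and per 1000000 fragments. For Nat10 and Thumpd1 the FPKM imply gene lengths of 3690 to 3735 and 2706 to 2708 bases.

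Estimated counts were rounded to whole numbers and expressed as CPM with TMM scaling (edgeR 4.0.16 in R 4.3.3). The log2 ratio adds 1 CPM to each library. The size rule calls a gene lower or higher in dsNat10 when its mean is 5 CPM or more, its log2 ratio is 1 or more in either direction, and equality lies outside the exact 95% interval (Clopper-Pearson) of the count ratio. No p-value was computed. Intervals cover counting error only, since reads copied by PCR and carrying no molecular identifier cannot be counted as separate molecules. A gene at 0 in 1 library gets a bound, set against a floor of 3 counts there (0.105 CPM in dsNat10 and 0.104 CPM in dsGFP). Genes with fractional counts are uncertain, since their reads may be split with a similar or overlapping gene. The method does not mark strand.

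The 2 genes, the 9 gene lists and the 3 marker lists were chosen with earlier results of these data known. The naming rule takes the 2 genes, every matched gene of lists with 12 or fewer members, from the list of acetyltransferases those past the size rule, the 4 of largest ratio and the most abundant, the 3 nearest genes of the table on either side of each gene, and the 5 genes nearest to each on log2(CPM + 1). A gene that this rule names is not reported here. Coordinates come from RefSeq (GRCm38.p6, matched by Entrez identifier for 12797 of 12836 genes) and GENCODE M21 (GRCm38), whose transcripts gave the mRNA sequences. Alternatives were plain totals, DESeq2 1.42.0 size factors, upper quartile scaling, TPM, FPKM, pseudocounts of 0.1 and 5, other limits on the mean, and leaving out genes with fractional counts.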

Additional observations from a re-analysis of the deposited data

How the results depend on the processing

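The ratio of Nat10 stayed below 0 under every alternative tried that gives it a value. Its log2 ratio of -3.79 became -3.07 in TPM and -2.77 in FPKM, with 1 added in each unit, and -4.46 with a pseudocount of 0.1 and -2.50 with 5, since a pseudocount weighs more on a gene near 0. Thumpd1 also stayed below 0 and was -0.29 in TPM. The difference between the 2 log2 ratios, -4.22 without a pseudocount, was -4.21 in TPM and -4.23 in FPKM, also without one. A pseudocount shrank it, to -3.44 with 1 CPM added, -2.16 with 5 CPM, -2.78 with 1 TPM and -2.45 with 1 FPKM. The values without a pseudocount in TPM and FPKM and the value with 1 CPM were chosen after seeing the data. The Nat10 and Thumpd1 ratios stayed within their counting intervals with plain totals, DESeq2 size factors, upper quartile scaling or without genes with fractional counts. Their difference without a pseudocount could not move in these settings, since library scaling cancels in it. The 1334 genes called lower became 836 in TPM, 693 in FPKM, 3252 with no limit on the mean, 502 at 20 CPM or more and 164 at 50 CPM or more. The 1330 called higher became 712 in FPKM, 1681 with no limit on the mean, 524 at 20 CPM or more and 167 at 50 CPM or more. Of the 9 calls among the lists, Nat10 included, 4 were made in FPKM, 3 at 20 CPM or more and 1 at 50 CPM or more, where fewer genes are tested. No paired analysis was possible because each group has 1 library. Depth limits Nat10 in dsNat10 most, where 37 reads leave a counting interval of 0.912 to 1.79 CPM.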

Other observations

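Other mRNAs with exact runs of Nat10 sequence were looked up after the values were known, among 21876 genes with a protein-coding transcript in GENCODE M21 and on both strands. Only 14 shared a run of 19 bases or more with the main Nat10 mRNA, and 1, Dspp, a gene of tooth matrix, shared 21. That run begins at position 3377, in the 3′ UTR of Nat10, and is a short repeat that Hdgfl2, Ptcd3, Rph3al and Zdhhc4 share in part.
Nat10 and Dspp: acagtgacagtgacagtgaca
Of the 14 genes, 11 were in the table and 8 passed the mean limit, of which 1 was called lower and 2 higher (15.3% and 15.2% over all 8738 genes), with a median log2 ratio of 0.16. Hdgfl2 had 522 reads in dsNat10 and 1296 in dsGFP, 2.46-fold lower. Gtf2ird1 had 1271 in dsNat10 and 526 in dsGFP, 2.44-fold higher, and Crb2 had 474 in dsNat10 and 0 in dsGFP. Which stretch of Nat10 the injected RNA covered is not stated in the labels, so whether it held any of these runs was not tested.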
